A study of Mus musculus with 1152 samples.

Results

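Microglia from the hippocampus of wild-type (WT) mice were compared with microglia from the cerebellum of WT mice, with 4 mice behind each group. The wells of both groups were chosen by their sample labels, and wells were kept from 500 detected genes and 10000 gene reads upwards, provided mitochondrially encoded genes took no more than 20% of the reads. The filter kept 182 of 190 hippocampus wells and 162 of 190 cerebellum wells, together 344 of the 1041 wells kept in the whole series. Each well received a single sorted cell, and libraries were made with Smart-seq2, which reads whole transcripts and carries no molecular identifiers, so reads were counted and not molecules.

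WT mice were C57BL/6J, with no transgene and no treatment named, and the labels used here give neither age nor sex. A further 4 groups served only to read the WT comparison: 5xFAD hippocampus (3 mice, 154 wells), 5xFAD cerebellum (3 mice, 193 wells), WT cortex (4 mice, 167 wells) and 5xFAD cortex (4 mice, 183 wells). The 5xFAD line carries mutant human transgenes, APP among them, driven by the neuronal Thy1 promoter and forms amyloid plaques, and its strain is also labelled C57BL/6J. In every group, brains were perfused with PBS, and cells were taken from a Percoll gradient and stained for CD11b, CD45, Ly6C, Ly6G and CD206. The series describes the regions as coming from the same mice, while its preparation text speaks of a homogenate of the whole brain. WT hippocampus filled plate columns 13 to 24 of plate P209 and WT cerebellum plate columns 1 to 12 of plate P210, so region and plate cannot be told apart in the WT comparison.

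Microglia are the macrophages of the brain tissue itself. In the healthy adult brain they express a set of genes known as homeostatic, among them the nucleotide receptor P2ry12, and they need TGF-beta signals to keep it. Cerebellar microglia are known from mouse work for lower density and for more expression of immune and cell-clearance genes than forebrain microglia. Other macrophages live at the borders of the brain, in the meninges, the choroid plexus and around vessels, and are marked by Mrc1 (CD206), Ms4a7 and MHC class II genes.

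Summed reads per mouse ran from 6627264 to 12923320 over the 8 sums, and the median well held 235875 reads in hippocampus and 250052 reads in cerebellum. Over mice, the median number of genes per well averaged 2541 ± 121 in hippocampus and 2379 ± 45.6 in cerebellum (SD, n = 4 each, exact two-sided permutation test, p = 0.0571). Microglial markers held in both groups. Csf1r, the receptor for the survival factor of microglia, had a read in every kept well, P2ry12 in 99.5% of hippocampus and 95.1% of cerebellum wells, and the transcription factor Sall1 in 90.7% of hippocampus and 77.2% of cerebellum wells. Wells with at least 3 genes of another cell type's list at 50 CPM (gene reads scaled to a common total) or more numbered 8 in hippocampus and 23 in cerebellum. Border macrophage markers made up 1 of these in hippocampus (mouse 3) and 14 in cerebellum (2, 7, 1 and 4 in mice 1 to 4), oligodendrocyte markers 5 in hippocampus and 8 in cerebellum, and monocyte markers 0 in hippocampus and 2 in cerebellum. These are called marked wells, and where a gene no longer passed without them, this is given beside it.

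Between the regions, 65 genes differed. Among those higher in hippocampus were 10 genes of a list of homeostatic microglia, and among those lower 4 genes of MHC class I presentation. Reads were summed per mouse and region and tested with edgeR's quasi-likelihood test, with all 22 sums of the series in the fit, Benjamini-Hochberg adjustment over 17358 genes and a threshold of 0.05. Of these genes 32 were higher in hippocampus (0.184%) and 33 lower (0.19%), and 911 and 1469 were at an unadjusted p under 0.05. All 65 had mice that did not overlap between the groups, as had 4.96% of all genes tested. Log2 fold changes are hippocampus over cerebellum unless another pair is named, and their median over all genes was -0.08. Over all genes tested 7804 were positive and 9246 negative. A sum over wells cannot tell fewer expressing cells from less RNA per cell.

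How many genes passed depended on the libraries and the fit. Without the marked wells 18 genes were higher (0.11% of 16348 tested) and 14 lower (0.0856%), among them 16 of the 32 and 12 of the 33. Leaving out hippocampus mouse 1 gave 21 higher and 20 lower, leaving out hippocampus mouse 2 gave 20 and 19, and leaving out cerebellum mouse 2 gave 21 and 20. A fit of the 8 WT sums alone gave 7 and 6, and DESeq2's size factors in edgeR gave 27 and 43. Across the 22 other settings, 7 genes kept their call wherever they could be fitted, among them Fcrls, P2ry12, Sparc, Cd164 and Slc34a2 among the higher genes and Slamf9 among the lower.

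Of the 30 genes on the homeostatic list 10 rose in hippocampus and 0 fell, and 18 of the other 20 had a positive fold change. The list's median log2 fold change was 0.50, against -0.08 over all genes. Among those that rose were Fcrls, P2ry12, P2ry13, Gpr34, Tmem119, Sparc, Slc2a5, Crybb1 and Golm1. Without the marked wells 6 of the list rose and the median was 0.46.

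Fcrls, an Fc receptor-like surface protein used as a microglial marker in mice (chr3:87250736-87263765, RefSeq, GRCm38), had 5516, 4772, 4857 and 4816 CPM in hippocampus, against 1881, 1721, 1523 and 1761 CPM in cerebellum, on edgeR's TMM scale of CPM. The lowest hippocampus mouse stood far above the highest cerebellum mouse (log2 fold change 1.54, SE 0.10, adjusted p = 4.89e-09). The wells behind these sums differed too: 179 of 182 hippocampus wells had a read, against 123 of 162 cerebellum wells. The median well was at 4620 CPM in hippocampus and 1010 CPM in cerebellum, and the lower quartile at 2810 CPM in hippocampus and 6.70 CPM in cerebellum. Cerebellar wells ranged from no Fcrls to the level of a typical hippocampus well, whose median lay under the cerebellar maximum of 7400 CPM. Without the marked wells the log2 fold change was 1.53.

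P2ry12, the ADP receptor with which microglia sense injury (chr3:59216271-59262985), had 9627, 10670, 8783 and 8715 CPM in hippocampus, against 3747, 3767, 4483 and 3900 CPM in cerebellum. The groups were well apart (log2 fold change 1.25, SE 0.08, adjusted p = 5.66e-09), and the log2 fold change was 1.13 without the marked wells. Its exons overlap Med12l, and the sources do not state whether counting used strand. P2ry13, a related ADP receptor, had 3968, 4321, 3315 and 3079 CPM in hippocampus, against 2429, 2205, 2946 and 2398 CPM in cerebellum. The gap was narrower (log2 fold change 0.56, SE 0.12, adjusted p = 0.0452), and without the marked wells the adjusted p was 0.101. Gpr34, a receptor for lysophosphatidylserine, had 5597, 4526, 4890 and 5237 CPM in hippocampus, against 2857, 2659, 3522 and 2832 CPM in cerebellum. All hippocampus mice were above all cerebellum mice (log2 fold change 0.77, SE 0.11, adjusted p = 0.000904).

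Sparc, a secreted matrix protein (chr11:55394159-55420080), had 4964, 4826, 4505 and 5487 CPM in hippocampus, against 2707, 2339, 2677 and 2342 CPM in cerebellum. Hippocampus was higher in every mouse (log2 fold change 0.98, SE 0.09, adjusted p = 2.14e-06). Tmem119, a membrane protein used to tell microglia from other macrophages, had 4687, 5653, 5245 and 6521 CPM in hippocampus, against 2350, 3066, 4163 and 3974 CPM in cerebellum. The difference was larger than the spread between mice (log2 fold change 0.71, SE 0.13, adjusted p = 0.0132), and its adjusted p was 0.0512 without the marked wells.

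Slc2a5, the fructose transporter GLUT5, averaged 1346 ± 272 CPM in hippocampus and 640.4 ± 73.4 CPM in cerebellum (SD, n = 4 each; log2 fold change 1.07, adjusted p = 0.00593). Crybb1, a crystallin transcribed in mouse microglia, averaged 214 ± 19.7 CPM in hippocampus and 97.6 ± 30.9 CPM in cerebellum (log2 fold change 1.13, adjusted p = 0.0391), and Golm1, a Golgi membrane protein whose exons overlap Naa35, 1778 ± 159.6 CPM in hippocampus and 983 ± 289 CPM in cerebellum (log2 fold change 0.85, adjusted p = 0.0127). In the unmarked wells Slc2a5 passed, while Crybb1 and Golm1 had adjusted p-values of 0.0869 and 0.153. The fractalkine receptor Cx3cr1 had 7371, 7044, 7012 and 6229 CPM in hippocampus, against 5714, 6052, 7066 and 5252 CPM in cerebellum. The groups overlapped, and it did not pass (log2 fold change 0.20, adjusted p = 0.337). Nor did the ectonucleotidase Entpd1 (log2 fold change 0.63, adjusted p = 0.107) or the uptake receptor Mertk (log2 fold change 0.45, adjusted p = 0.252). Cd33 at -0.42 and Mef2c at -0.15 were the 2 members with a negative log2 fold change.

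**Figure D1:**
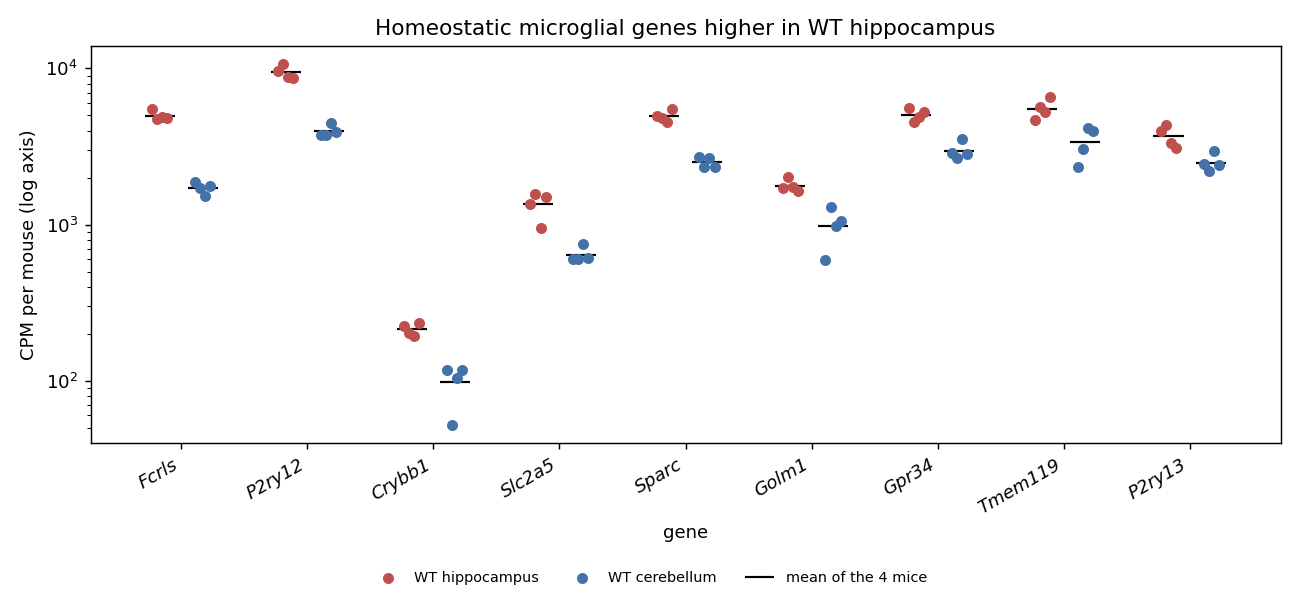
CPM of 9 of the 10 homeostatic genes that rose in hippocampus, on a log axis, in each of the 4 WT hippocampus mice and the 4 WT cerebellum mice, with group means as lines. The hippocampus points lie above the cerebellum points in each gene, with a wide gap for Fcrls (means of 4990 CPM in hippocampus and 1721 CPM in cerebellum) and a narrow one for P2ry13.

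A further 22 genes rose. Slc40a1, the iron exporter ferroportin, had 554, 482, 343 and 449 CPM in hippocampus, against 79.7, 173, 86.3 and 309 CPM in cerebellum. Cerebellum mouse 4 came near the lowest hippocampus mouse (log2 fold change 1.496, SE 0.32, adjusted p = 0.036), and without the marked wells the log2 fold change of 1.42 had an adjusted p of 0.175. Abcg1, which exports sterols, had 355, 456, 322 and 496 CPM in hippocampus, against 116, 254, 112 and 128 CPM in cerebellum. Hippocampus mice were higher without overlap (log2 fold change 1.42, SE 0.25, adjusted p = 0.00924). Cd164, a sialomucin of lysosomes and the cell surface, had 2310, 1951, 2043 and 1877 CPM in hippocampus, against 938, 699, 936 and 894 CPM in cerebellum. The gap exceeded the range within either group (log2 fold change 1.24, SE 0.15, adjusted p = 7.47e-05). Ldhb, a lactate dehydrogenase subunit, averaged 435 ± 54.2 CPM in hippocampus and 227 ± 33.9 CPM in cerebellum (log2 fold change 0.94, adjusted p = 0.00238). All 3 of Abcg1, Cd164 and Ldhb passed without the marked wells.

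Upk1b, a tetraspanin best known from the lining of the bladder, had 260.2, 380.2, 182 and 371 CPM in hippocampus, against 39.8, 35.5, 116 and 66.8 CPM in cerebellum. It had a read in 93 of 182 hippocampus wells and 26 of 162 cerebellum wells (log2 fold change 2.21, SE 0.37, adjusted p = 0.00506). The other abundant genes that rose were Ccng2 (a cyclin of resting cells, 1.42), Rap1b (a small GTPase, 1.17), Scoc (1.07), St3gal6 (a sialyltransferase, 0.96), Efhd2 (0.96), Hnrnpu (an RNA-binding protein, 0.87), Arhgap5 (a GTPase-activating protein, 0.84), Edem1 (of endoplasmic reticulum quality control, 0.80), Adgrg1 (the adhesion receptor GPR56, 0.74), Cmtm6 (which stabilises PD-L1, 0.73) and Epb41l2 (0.62), each with its log2 fold change. Without the marked wells Upk1b, Ccng2, St3gal6 and Cmtm6 passed. The other 8 did not, with adjusted p-values from 0.0512 (Efhd2 and Adgrg1) to 0.195 (Epb41l2).

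The 5 remaining genes rested on few reads or few wells. Slc39a12, a zinc transporter, had 43.8, 44.8, 43.5 and 24.2 CPM in hippocampus, against 0, 0.401, 0 and 0.522 CPM in cerebellum. Its 1626 hippocampus reads came from 13 wells, against 10 reads from 2 wells in cerebellum (log2 fold change 7.25, SE 1.00, adjusted p = 0.000586). Akap5, a kinase anchoring protein, had 654 reads from 6 hippocampus wells and 1 from 1 cerebellum well. Thap6 had 964 reads from 16 hippocampus wells and 6 from 3 cerebellum wells. Zfp58, a zinc finger gene, had 270 reads from 6 hippocampus wells and 0 in cerebellum. Set against a floor of 3 reads over the cerebellum group, it was 79.5-fold higher. That floor covers counting error only, and not the small number of wells. B3galnt2, whose exons overlap Tbce, had 1243 reads in hippocampus and 73 in cerebellum. Of these, Slc39a12 and Zfp58 passed without the marked wells, and Akap5, Thap6 and B3galnt2 did not.

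Slc34a2, a sodium-phosphate cotransporter best known from lung, had 3172, 3088, 3099 and 2716 CPM in hippocampus, against 1365, 745, 792 and 1012 CPM in cerebellum (log2 fold change 1.63, SE 0.15, adjusted p = 1.81e-06). The same gene took 62.0% of the reads of the blank wells on plate P209, 86.9% on plate P210 and 85.1% on plate P211. In cortex it had 2519 to 3198 CPM in WT mice on plate P209, against 587 to 773 CPM in 5xFAD mice on plate P210. Whether its reads in cells come from the cells was not tested. Leaving it out before normalisation gave 31 higher and 33 lower genes.

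On the MHC class I list 4 of 20 genes fell in hippocampus and 16 did not pass. The list covers the heavy chains and the light chain that present peptides from inside the cell, with the enzymes and transporters that supply the peptides, and interferons induce them. Those that fell were H2-D1, H2-K1, H2-T23 and B2m, 0 rose, 18 had a negative fold change and the median was -0.80. In the unmarked wells 3 fell and the median was -0.51. Promoter stretches of these 4 genes are shown because all 4 fell, with that of Slfn5, an interferon-induced gene read in cerebellum and not in hippocampus. Each holds 30 bases, 5′ to 3′ on the gene's strand, from RefSeq's promoter windows (GRCm38.p6). Capitals mark the enhancer A motif of class I genes (GGGATT followed directly by CCCC) and 2 motifs of the interferon-stimulated response, a short form (GAA, any base, TGAAA) and a long form (GAAA, any 2 bases, GAAA), each searched on both strands.
H2-D1: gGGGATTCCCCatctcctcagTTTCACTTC
H2-K1: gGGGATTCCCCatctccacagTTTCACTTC
H2-T23: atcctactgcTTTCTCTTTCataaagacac
B2m: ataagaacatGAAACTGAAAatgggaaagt
Slfn5: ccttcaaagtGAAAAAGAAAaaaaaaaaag
The stretches lie at chr17:35262923-35262952 (plus strand), chr17:34000429-34000458 (minus strand), chr17:36032806-36032835 (minus strand), chr2:122147538-122147567 (plus strand) and chr11:82951937-82951966 (plus strand). H2-K1 has 2 starts among these windows, and positions are counted from the more upstream of the 2. The RefSeq span of the H2-K1 gene, given below, reaches further upstream than that start. Its stretch therefore lies inside the span of the gene. In the GENCODE annotation the stretches of H2-D1 and H2-T23 lie within the 5′ untranslated part of a transcript that starts upstream of the RefSeq start.

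H2-D1 and H2-K1 held the enhancer A motif and the short interferon motif side by side. They lay 170 to 142 bases before the start in H2-D1 and 110 to 82 before the start used for H2-K1. The long interferon motif lay 124 to 115 bases before the start in H2-T23, 139 to 130 in B2m and 155 to 146 in Slfn5. The matches do not overlap. Among all 32851 windows of 250 bases in the table, the long interferon motif was in 2.98%, the short one in 1.5% and the enhancer A motif in 0.0852%. Of the 65 genes 50 had a window: among the 26 lower genes 3 held the long, 2 the short interferon motif and 2 the enhancer A motif, and among the 24 higher genes 0 held any. GAGGAA, a core bound by ETS factors such as PU.1, was in 23.3% of all windows, in 6 of the 24 higher and in 6 of the 26 lower genes. The motifs were picked after the promoters had been seen, and a match is a description of letters.

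H2-D1, a classical heavy chain (chr17:35263094-35267497), had 765, 470, 742 and 512 CPM in hippocampus, against 1719, 1930, 2081 and 1674 CPM in cerebellum. The groups were far apart (log2 fold change -1.57, SE 0.17, adjusted p = 9.8e-06), and the log2 fold change was -1.46 without the marked wells. H2-K1, the other classical heavy chain of this strain (chr17:33996012-34000619), had 751, 395, 669 and 504.4 CPM in hippocampus, against 998, 1501, 1549 and 1092 CPM in cerebellum. Its mice did not overlap (log2 fold change -1.15, SE 0.21, adjusted p = 0.0127), but without the marked wells its adjusted p was 0.0634. The heavy chains resemble each other closely, so reads could have been split between them or dropped in the authors' counting. H2-T23, the heavy chain of the non-classical molecule Qa-1, had 113, 106, 102 and 113 CPM in hippocampus, against 292, 258, 245 and 262 CPM in cerebellum. Mice varied little in either region (log2 fold change -1.28, SE 0.20, adjusted p = 0.00171). B2m, the light chain of all class I molecules (chr2:122147687-122153082), had 2743, 2100, 2116 and 2404 CPM in hippocampus, against 3490, 4332, 4429 and 3703 CPM in cerebellum. It was lower in each hippocampus mouse (log2 fold change -0.77, SE 0.11, adjusted p = 0.00103) and had a read in every kept well.

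Among the members that did not pass, the heavy chain H2-Q7 had a log2 fold change of -2.98, the class I transactivator Nlrc5 -2.37, the peptide transporter subunit Tap1 -0.88 and the immunoproteasome subunit Psmb8 -0.56. The chaperone Pdia3, which helps to load class I molecules, had 0.16.

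**Figure D2:**
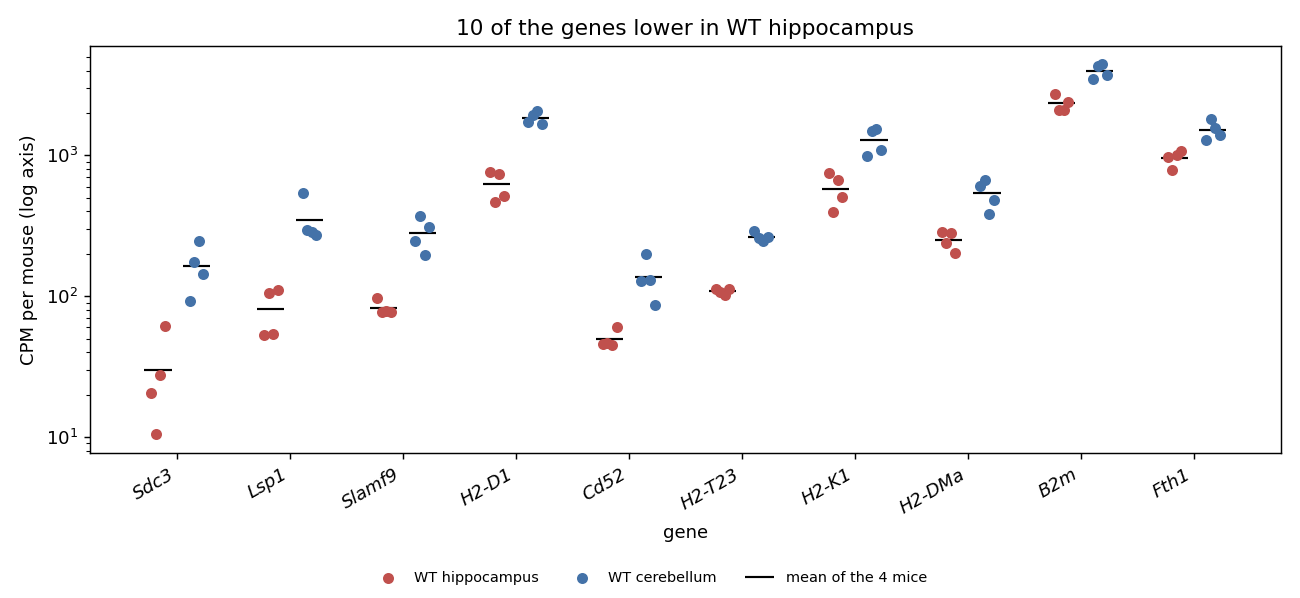
CPM of 10 of the genes that fell in hippocampus, on a log axis, in each of the 4 WT hippocampus mice and the 4 WT cerebellum mice, with group means as lines. H2-D1 averages 622 CPM in hippocampus and 1851 CPM in cerebellum without overlap, and the mice of Sdc3 scatter more than those of H2-T23.

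Lsp1, Slamf9, Sdc3, Cd52 and Cd48 also fell. Lsp1, an actin-binding protein of white blood cells, had 53.2, 106, 53.9 and 111 CPM in hippocampus, against 543, 296, 286 and 272 CPM in cerebellum. It had a read in 41 of 182 hippocampus and 82 of 162 cerebellum wells (log2 fold change -2.11, SE 0.30, adjusted p = 0.000813). Slamf9, a SLAM family receptor of macrophages, had 96.5, 77.2, 79.1 and 77.8 CPM in hippocampus, against 248, 374, 195 and 309.6 CPM in cerebellum. The hippocampus mice were close together and all below the cerebellum mice (log2 fold change -1.77, SE 0.26, adjusted p = 0.000904). Sdc3, a heparan sulphate proteoglycan, had 20.5, 10.5, 27.7 and 61.3 CPM in hippocampus, against 93.1, 174, 245 and 143 CPM in cerebellum. Its mice scattered more but did not overlap (log2 fold change -2.45, SE 0.41, adjusted p = 0.00448). Cd52, a small glycoprotein of leukocyte membranes whose exons overlap Crybg2, averaged 49.3 ± 7.31 CPM in hippocampus and 136 ± 47.1 CPM in cerebellum (log2 fold change -1.46, adjusted p = 0.0108), and Cd48, a ligand of the SLAM family, 155 ± 41.6 CPM in hippocampus and 359.6 ± 100.3 CPM in cerebellum (log2 fold change -1.22, adjusted p = 0.0461). In the unmarked wells Lsp1, Slamf9 and Cd52 passed, and Sdc3 and Cd48 had adjusted p-values of 0.0512 and 0.101.

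Fth1, the heavy chain of the iron store ferritin, had 974, 789, 1007 and 1074 CPM in hippocampus, against 1296, 1801, 1575 and 1394 CPM in cerebellum. It was lower in every hippocampus mouse (log2 fold change -0.66, SE 0.13, adjusted p = 0.0191), and its adjusted p was 0.101 without the marked wells. Of 15 genes of iron transport and storage, Slc40a1 rose and Fth1 fell, with a list median of -0.20. Also lower were Rassf4 (-1.40), the signalling adaptor Crkl (-1.31), Dcaf11 (-1.29), Tmem176a and Tmem176b (-1.25 and -0.93, membrane proteins whose exons overlap each other), Uba7 (the enzyme that activates ISG15, -1.13), Ptk2b (a tyrosine kinase, -1.08), Ifi30 (a lysosomal thiol reductase that prepares antigen, -1.02), Akna (-1.01), Dock8 (an exchange factor for migrating leukocytes, -0.98), Sh3bgrl3 (-0.72), Rack1 (a ribosomal scaffold, -0.71) and Ddx5 (an RNA helicase, -0.53). Gm8995, AU020206 and Gm26917 had -1.74, -1.71 and -1.10. Without the marked wells 5 of these 16 genes passed, namely Dock8, Akna, Ddx5, Gm8995 and Gm26917. The other 11 did not, with adjusted p-values from 0.0512 (Tmem176b) to 0.373 (Dcaf11). Of the reads of Tmem176a, marked wells held 7.85% in hippocampus and 29.7% in cerebellum, of Tmem176b 3.20% in hippocampus and 28.7% in cerebellum, and of Dcaf11 4.26% in hippocampus and 28% in cerebellum.

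There were 5 genes with 0 reads over the 182 hippocampus wells: Slfn5 and Ms4a4c (both induced by interferon in mice), Ch25h (cholesterol 25-hydroxylase), Il2rg (the common chain of several interleukin receptors) and Ctse (cathepsin E). In cerebellum, Slfn5 had 855 reads from 14 wells, Ms4a4c 808 from 8, Ch25h 630 from 6, Il2rg 474 from 11 and Ctse 272 from 15. Against a floor of 3 reads over the hippocampus group, Slfn5 was 323-fold lower, Ms4a4c 305-fold, Ch25h 238-fold, Il2rg 179-fold and Ctse 103-fold. The floor covers counting error only, and not the small number of cerebellum wells with reads. Marked wells held from 21.7% (Ch25h) to 51.1% (Ms4a4c) of these cerebellum reads, and without them Ctse passed, while the other 4 had adjusted p-values from 0.0512 (Slfn5) to 0.244 (Ch25h).

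Most interferon response genes had a negative fold change, and few passed. Of 38 tested 0 rose and 2 fell (Ifi27l2a and Slfn5), 36 had a negative fold change and the median was -2.52. For 6 of the 38 a group had 0 reads, so the size of their fitted fold changes is not a bound. Setting the marked wells aside, 0 fell and the median was -2.35. Ifi27l2a, an interferon-induced mitochondrial protein, had 0, 1.2, 3.60 and 8.95 CPM in hippocampus, against 28.6, 83.0, 103 and 59.5 CPM in cerebellum. Its reads came from 11 hippocampus and 63 cerebellum wells (log2 fold change -4.30, SE 0.83, adjusted p = 0.0173). Ifitm3, which blocks the entry of viruses, had 4.89, 0, 24.6 and 21.1 CPM in hippocampus, against 119.5, 129, 86.6 and 79.6 CPM in cerebellum. Its mice did not overlap, but it did not pass (log2 fold change -3.03, adjusted p = 0.304), and border macrophage wells held 54.8% of its cerebellum reads. Slfn2 had -1.76 (adjusted p = 0.0565), Irf9, a subunit of the interferon-activated transcription complex, -1.21 (adjusted p = 0.0757) and Bst2, which tethers virus particles, -1.13 (adjusted p = 0.151).

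**Figure D3:**
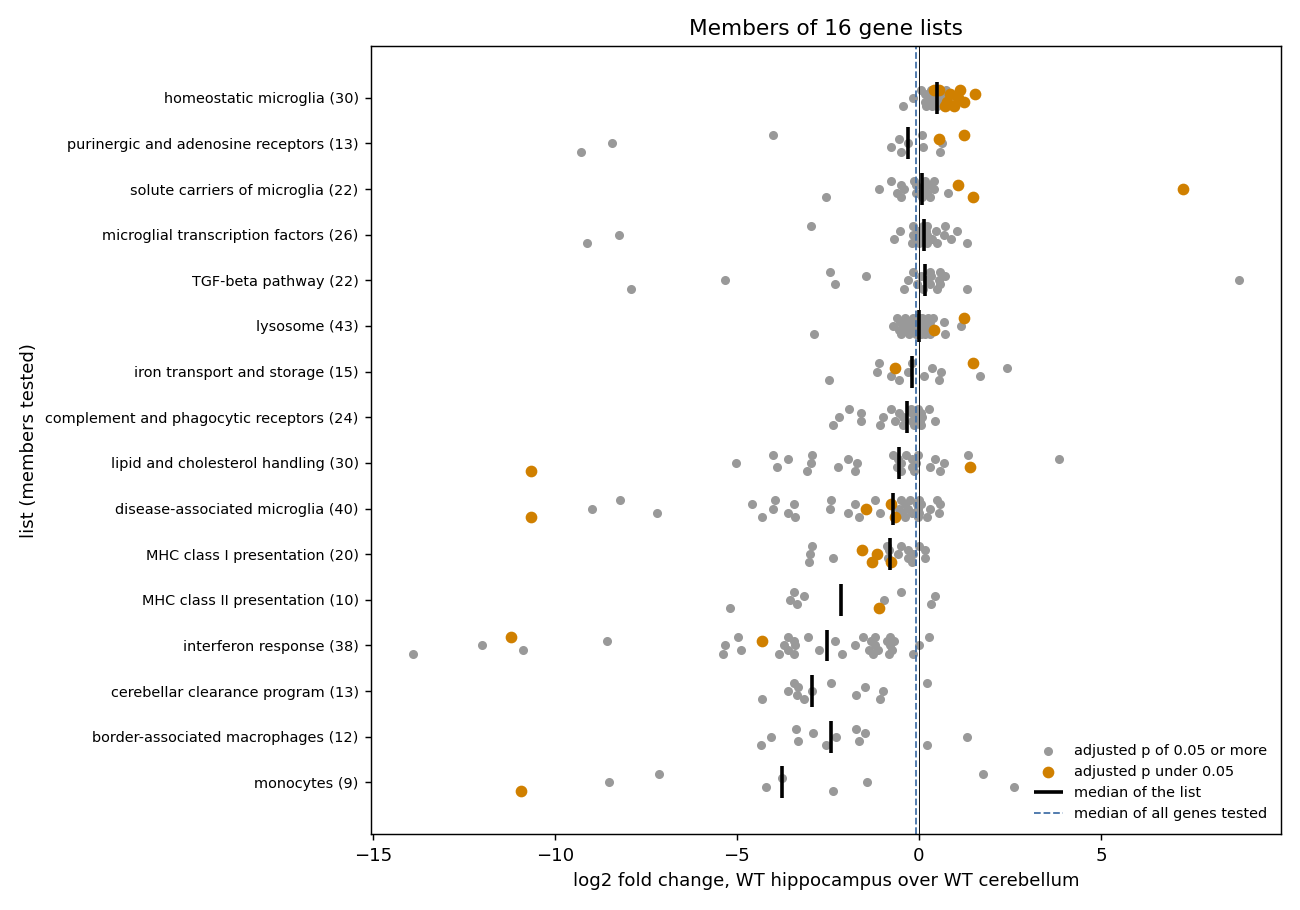
Log2 fold change (WT hippocampus over WT cerebellum) of each tested member of 16 gene lists, with list medians and the median of all genes; coloured points passed the threshold. The homeostatic list has a median of 0.50 and the MHC class I list one of -0.80, and most points of the interferon list did not pass.

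No gene passed on the list named for clearance by cerebellar microglia, which holds Apoe, Axl and Cd74, and the reads of several of its genes came mostly from marked wells. Of 13 genes 0 rose and 0 fell, 12 had a negative fold change and the median was -2.94, or -2.03 without the marked wells. Apoe, a lipid carrier, had 147, 78.6, 1266 and 200.2 CPM in hippocampus, against 6148, 6175, 416 and 7864 CPM in cerebellum. Hippocampus mouse 3, which held the border macrophage well, stood above cerebellum mouse 3, so the groups overlapped (log2 fold change -3.61, SE 0.91, adjusted p = 0.105). The 14 border macrophage wells held 90.1% of the cerebellar Apoe reads. In the unmarked wells, Apoe scaled to the reads of those wells was at 166, 83.9, 258 and 201 in hippocampus, against 916, 159.9, 449 and 1026 in cerebellum (CPM without TMM), and the log2 fold change was -1.79.

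Cd74, the invariant chain of MHC class II, had 17.3, 6.22, 1262 and 19.6 CPM in hippocampus, against 1662, 8385, 146 and 3841 CPM in cerebellum. The same mouse 3 pair overlapped (log2 fold change -3.43, SE 1.64, adjusted p = 0.364), and the 14 wells held 97.2% of the cerebellum reads. Of 10 MHC class II genes 0 rose and 1 fell, with a median of -2.13, or -0.95 without the marked wells. The gene that fell was H2-DMa, which loads peptides onto class II and whose exons overlap Brd2, at 251 ± 38.9 CPM in hippocampus and 536 ± 130 CPM in cerebellum (log2 fold change -1.10, adjusted p = 0.0226, and 0.146 without the marked wells). Axl, a receptor for dying cells, had a read in 6 hippocampus and 54 cerebellum wells, 57.2% of its cerebellum reads in the 14 wells and a log2 fold change of -4.31 (adjusted p = 0.18). Lpl, lipoprotein lipase, had -4.01 (adjusted p = 0.0676), with 92.3% of its cerebellum reads in 10 wells.

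The border macrophage wells of cerebellum were low in microglial genes. Their median P2ry12 level was 19.4 CPM, against 3760 CPM in the other 148 cerebellum wells, and Sall1 had a read in 0 of 14, against 125 of 148. Their median Apoe level was 45600 CPM and their median Cd74 level 37900 CPM, while the median of both was 0 in the other wells. Summed over the list of 14 border macrophage markers, hippocampus mice had 367 to 857 CPM and cerebellum mice 307 to 1162 CPM, with Lyve1 and Cd209f at 0 in hippocampus and no marker at 0 in cerebellum. Hippocampus mice 1, 2 and 4 held no border macrophage well and still summed to 456, 437 and 367 CPM. In mouse 4, Mrc1 and Ms4a7 were at 0. The sum thus includes markers read in other wells and is no measure of border macrophages. Of the 14 markers 12 were tested, and of these 0 rose and 0 fell (median -2.42). The 11 monocyte markers summed to 4.41 to 18.2 CPM in hippocampus and 55.5 to 462 CPM in cerebellum, with Ly6c2, Chil3 and Ms4a4c at 0 in hippocampus and 1 marker at 0 in cerebellum.

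Genes of disease-associated microglia, the state described around plaques, were mostly negative too. Of 40 tested 0 rose and 4 fell (Cd52, Fth1, B2m and Ch25h), 32 had a negative fold change and the median was -0.71. Without the marked wells 3 of the list fell, Cd52 and B2m among them, and the median was -0.53. Fth1 and Ch25h did not pass there, and the remaining gene had not passed with all wells. Trem2, the lipid receptor of that state, had 2018, 1894, 1754 and 1873 CPM in hippocampus, against 2090, 1898, 1807 and 1905 CPM in cerebellum. The groups overlapped, and it did not pass (log2 fold change -0.03, SE 0.10, adjusted p = 0.972). Its signalling partner Tyrobp had 888, 859, 819 and 981 CPM in hippocampus, against 1370, 1322, 1199 and 1246 CPM in cerebellum. Its mice did not overlap, but it did not pass (log2 fold change -0.53, SE 0.15, adjusted p = 0.162).

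Among the other lists, of 43 lysosomal genes 2 rose, 0 fell and the median was 0.00, with Cd164 among those that rose. Of 13 purinergic and adenosine receptors, P2ry12 and P2ry13 rose (median -0.30). Of 22 solute carriers, Slc39a12, Slc2a5 and Slc40a1 rose (median 0.10), of 19 glycolysis genes Ldhb rose (median -0.21), and of 30 genes of lipid handling Abcg1 rose and Ch25h fell (median -0.54). No gene passed on the lists of microglial transcription factors (26 tested, median 0.15), the TGF-beta pathway (22, 0.17), complement and phagocytic receptors (24, -0.32), receptors and bridges for apoptotic cells (20, 0.23), or inflammatory cytokines and chemokines (25, -0.53). The same held for immediate early genes, which report on cell isolation (21, 0.61), heat shock genes (18, 0.09), glucocorticoid-induced genes (14, 0.27), cell cycle genes (25, 0.12), cytosolic ribosomal proteins (82, -0.44) and mitochondrially encoded genes (8, 0.05).

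Shares of wells with a read were compared after thinning each well to 50000 reads in genes, which left 177 hippocampus and 137 cerebellum wells and dropped 5 and 25. Fcrls had a read in 95.5%, 100%, 97.8% and 100% of the wells of the hippocampus mice, against 82.1%, 73.0%, 70.6% and 84.2% of those of the cerebellum mice. Upk1b had a read in 47.5% of hippocampus and 16.1% of cerebellum wells, H2-D1 in 74.6% of hippocampus and 92.7% of cerebellum wells, Lsp1 in 22.03% of hippocampus and 53.3% of cerebellum wells, and Ifi27l2a in 4.52% of hippocampus and 37.2% of cerebellum wells. Over 140 named genes, 31 had a higher and 24 a lower share in hippocampus at an unadjusted p under 0.05 (exact two-sided permutation test over mice). After adjustment 0 passed, where the smallest p that 4 against 4 mice allow, 0.0286, became 0.0727. The 140 genes include every gene that differed and were chosen largely by the same wells, so these counts are no separate support. Counts over all genes tested are not given. Of the 12 blank wells, 2 had a Fcrls read.

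The same regions were compared in 5xFAD mice, where hippocampus and cerebellum shared plate P211 and no sum was shared with the WT comparison. There 36 genes were higher in hippocampus (0.207%) and 2 lower (0.0115%). Of the 32 genes higher in WT hippocampus, 19 had the same sign in 5xFAD and 3 passed (Fcrls, Sparc and Ldhb), and their median log2 fold change was 1.07 in WT and 0.10 in 5xFAD. Of the 33 lower genes, 13 had the same sign, 0 passed in the same direction and 2, B2m and Fth1, passed in the opposite one. Their medians were -1.28 in WT and 0.13 in 5xFAD, where the median over all genes was 0.03. Both sets were chosen by the WT sums, which can enlarge their WT medians and not their 5xFAD medians. The share of all genes tested that kept their sign is not given, here or for cortex below. Fcrls had 4326, 4443 and 4921 CPM in 5xFAD hippocampus, against 2116, 2084 and 2160 CPM in 5xFAD cerebellum. Within that plate its groups were again apart (log2 fold change 1.11, SE 0.11, adjusted p = 3.26e-05). Sparc had 3518, 3825 and 4085 CPM in 5xFAD hippocampus, against 2968, 2504 and 2476 CPM in 5xFAD cerebellum (log2 fold change 0.52, adjusted p = 0.0371).

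The difference between the WT and the 5xFAD fold change passed for 52 genes (0.3%), of which 6 were among the 32 and 11 among the 33. That test holds the WT sums by which the 32 and 33 were chosen, so these counts are not independent of the choice. P2ry12 had 4938, 3977 and 4574 CPM in 5xFAD hippocampus, against 4999, 5118 and 4692 CPM in 5xFAD cerebellum (log2 fold change -0.14, adjusted p = 0.784). Its WT minus 5xFAD difference was 1.38 (SE 0.13, adjusted p = 4.55e-06), while that of Fcrls was 0.43 (SE 0.15, adjusted p = 0.294). B2m had 6283, 5622 and 5067 CPM in 5xFAD hippocampus, against 3770, 3021 and 2710 CPM in 5xFAD cerebellum (log2 fold change 0.84, adjusted p = 0.00408). The direction was opposite to WT, with a difference of -1.61 (adjusted p = 4e-05), and H2-D1 differed by -2.06 (adjusted p = 0.000132). Of the disease-associated list 12 of 40 rose in 5xFAD hippocampus (median 1.08), and for 13 the WT minus 5xFAD difference passed, among them Tyrobp (-1.96, adjusted p = 0.00012) and Trem2 (-0.77, adjusted p = 0.029). The WT regions lay on different plates, while the 5xFAD regions shared a plate. In all these differences, genotype cannot be told apart from plate.

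Plates P209 and P210 also met in cortex, where they separate WT mice (plate P209) from 5xFAD mice (plate P210), so that genotype there cannot be told apart from plate. WT over 5xFAD cortex had 9 higher (0.0518%) and 42 lower genes (0.242%). Of the 32 genes higher in WT hippocampus, 24 had the same sign and 4 passed (P2ry12, Cd164, Crybb1 and Slc34a2). Of the 33 lower genes, 32 had the same sign and 7 passed (H2-D1, H2-K1, H2-T23, B2m, Gm26917, Ctse and Ch25h). Their medians were 0.44 and -0.68, against 0.09 over all genes. H2-D1 was at -1.48 (adjusted p = 4.25e-05), B2m at -0.80 (adjusted p = 0.000726), P2ry12 at 0.50 (adjusted p = 0.00412) and Gm26917 at -1.05 (adjusted p = 7.69e-06). Fcrls was at 0.04 (adjusted p = 0.965) and Sparc at 0.10 (adjusted p = 0.78). The part of the plate in the WT differences was not tested.

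**Figure D4:**
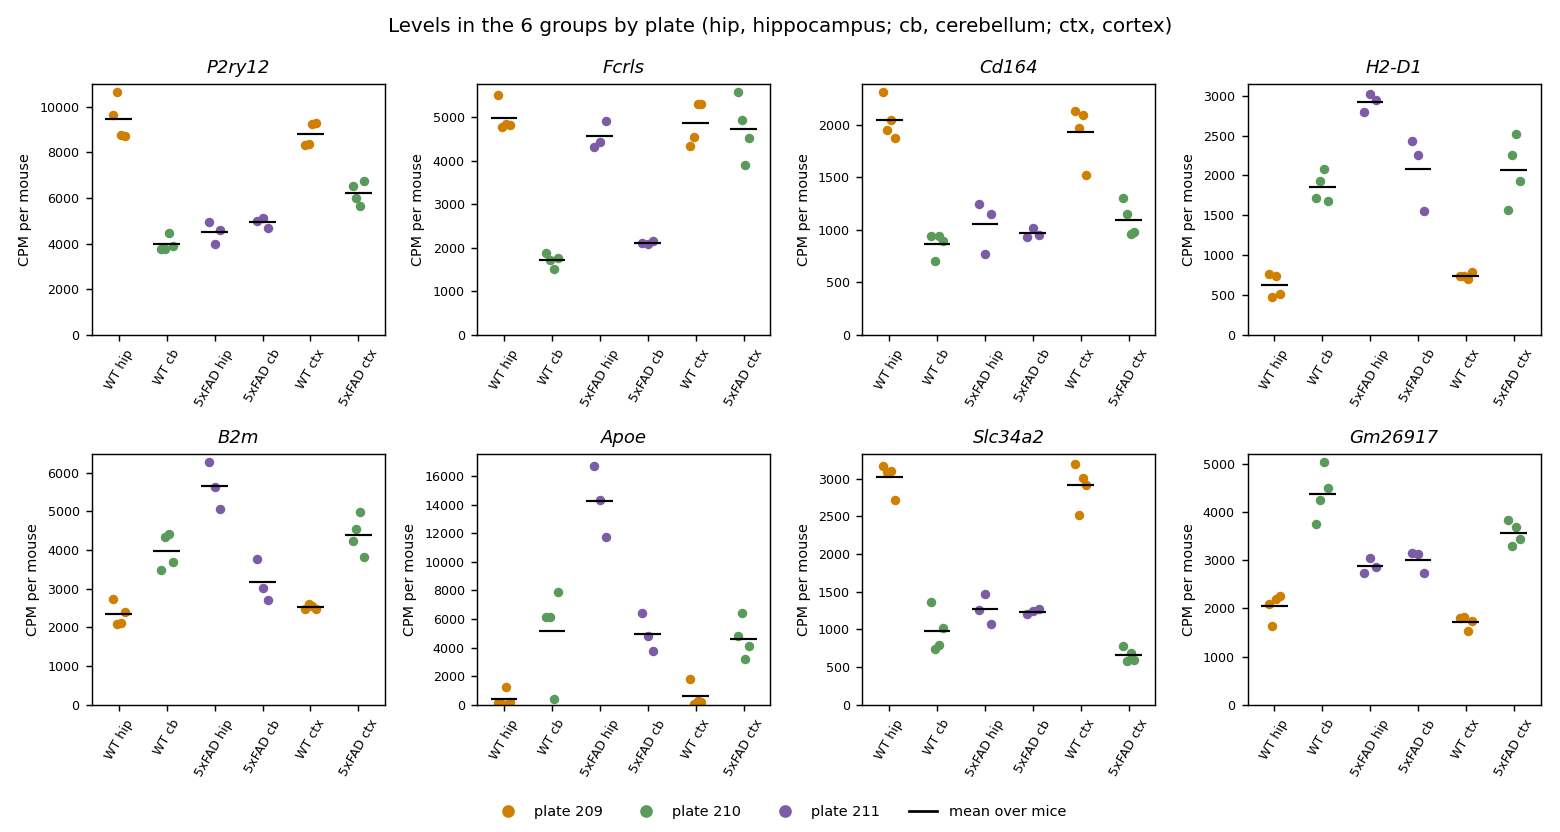
CPM per mouse in the 6 groups, coloured by plate, with group means. Fcrls is low in both cerebellum groups (means of 1721 CPM in WT and 2120 CPM in 5xFAD), while H2-D1 and Gm26917 are low in the 2 groups of plate P209, where Slc34a2 is high.

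**Figure D5:**
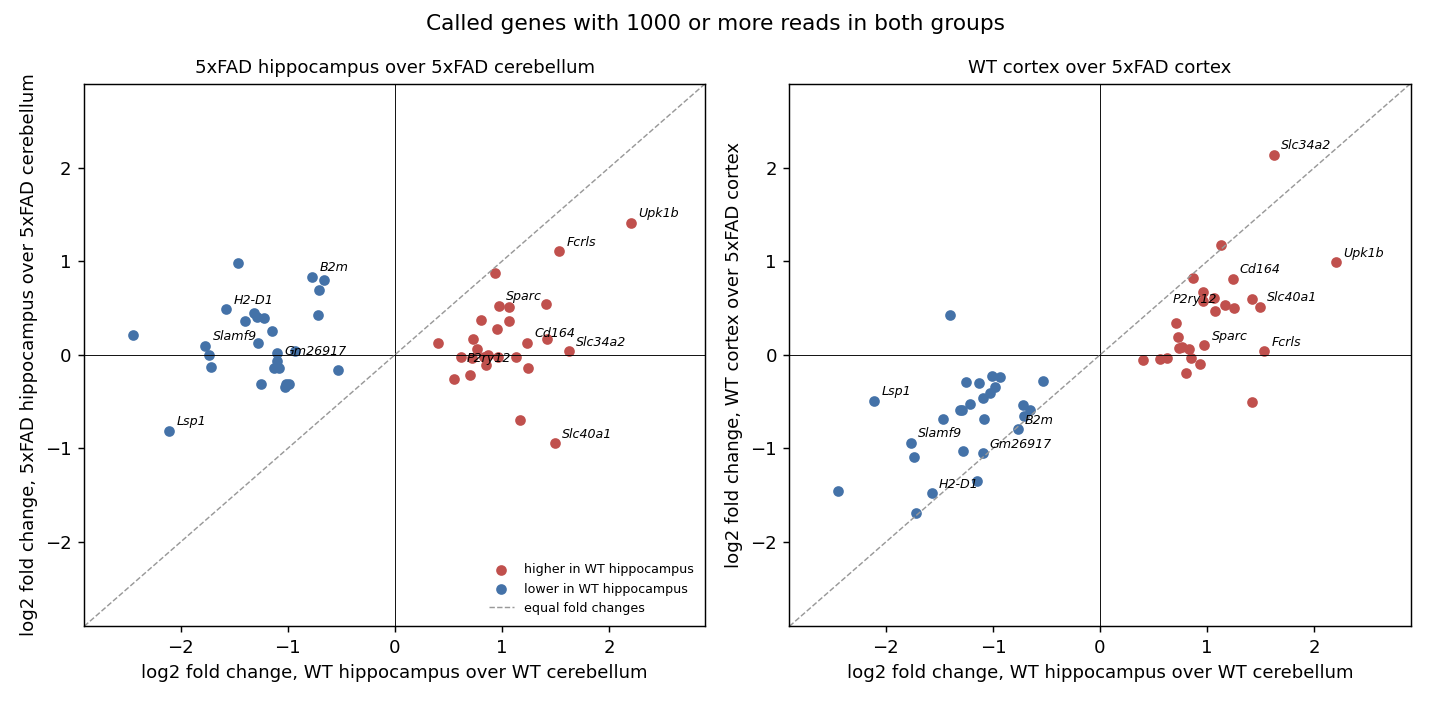
Log2 fold changes of 54 genes that differed between WT hippocampus and WT cerebellum with at least 1000 reads in each group (27 higher, 27 lower), against the same regions in 5xFAD on plate P211 and against WT over 5xFAD cortex on plates P209 and P210. Fcrls keeps its direction in 5xFAD (1.11) and is at 0.04 in cortex, while B2m is at 0.84 in 5xFAD and -0.80 in cortex.

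WT cortex, on the plate of WT hippocampus, adds another region, and its contrasts share sums with the main comparison, so they are set side by side as values. P2ry12 had a log2 fold change of 0.10 for hippocampus over cortex and -1.15 for cerebellum over cortex. In the same order Fcrls had 0.03 and -1.50, Sparc 0.30 and -0.68, Cd164 0.09 and -1.15, H2-D1 -0.25 and 1.32, and B2m -0.12 and 0.65. Slc39a12 ranged from 48.7 to 102 CPM in the WT cortex mice, 13.2 to 44.0 CPM in 5xFAD hippocampus and 9.52 to 22.6 CPM in 5xFAD cerebellum.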

How the data were processed

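The deposited table held raw counts of reads per gene and well (48587 genes, 92 ERCC spike-ins), without normalisation by the authors. The tools named are STAR 2.5.2b and featureCounts 1.5.1, with GRCm38 as the build, per the submitters' processing notes; the sources do not state the annotation, strand setting or filters. In 96 columns, those of plate columns 1 and 2, each deposited count was a sum over several wells. From each, the wells of the same plate row whose 2-digit plate column opens with the same digit were subtracted. This left 0 negative values. Of the kept wells of the WT comparison, 21 came from this subtraction, all among the 35 of cerebellum mouse 1.

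Counts were summed per mouse and region and fitted with edgeR 4.0.16 in R 4.3.3 (filterByExpr, TMM, glmQLFit, glmQLFTest), 1 term per group, Benjamini-Hochberg adjustment. The fit was also run on counts simulated with edgeR's own estimates of spread, which cannot show whether those estimates hold for these sums. limma 3.58.1 and DESeq2 1.42.0 served as alternatives, with other filters, scalings, well sets and omitted mice. Each SE is the absolute log2 fold change divided by the square root of edgeR's F statistic. Shares of wells were compared by exact permutation over mice. Coordinates of genes and promoters are from RefSeq, overlaps of exons from GENCODE.

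Members, gene lists and motifs were chosen with earlier results of these data known. Named genes were the 15 higher and 15 lower genes with the largest fold change among those that passed whose mean log2 CPM reached 4, with reads in 20% of the wells of a group and mice that did not overlap, then up to 3 members of each list by p, then a fixed set of 12. The other genes that passed are named in addition, and some items are not reported here. The series states that regions came from the same mice; that a replicate number marks a mouse is an assumption, and the deviations of same-numbered sums from their group means correlated at 0.00818, 0.00610, -0.0368 and 0.0195. P-values measure the spread between these sums.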

Additional observations from a re-analysis of the deposited data

Results flagged for a closer look

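For 20 named genes the hippocampus over cerebellum fold change differed between WT and 5xFAD mice by the test of that difference in edgeR. The named genes were chosen in part by the WT sums, which that test also holds. The WT minus 5xFAD difference on the log2 scale was positive for Cd164 (1.11), P2ry12 (1.38), Rap1b (1.86), Slc34a2 (1.59), Slc39a12 (6.57) and Slc40a1 (2.44). It was negative for B2m (-1.61), Cd52 (-2.45), Ch25h (-12.27), Ctse (-11.66), Fth1 (-1.46), Gm26917 (-1.04), H2-D1 (-2.06), H2-T23 (-1.41), Rack1 (-1.40), Sh3bgrl3 (-1.14), Slamf9 (-1.87), Tpi1 (-2.14), Trem2 (-0.77) and Tyrobp (-1.96). Ch25h and Ctse had 0 reads in WT hippocampus, so the size of their fitted differences is not a bound. In WT, region goes with the plate, while in 5xFAD both regions shared plate P211; the part of the plate in these differences was not tested.

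Of 206 groups of 4 mice examined, 16 held a mouse whose gap to the nearest other mouse was large against the range of the group on the log2 CPM scale, where chance gives about 5%. The ratio of gap to range is given in brackets. In hippocampus these were Arhgap5 (0.913), Cd52 (0.923), Efhd2 (0.837), Fcrls (0.878), Sh3bgrl3 (0.851), Slamf9 (0.892) and Slc39a12 (0.951). In cerebellum they were Abcg1 (0.835), Apoe (0.916), Cd164 (0.835), Crybb1 (0.844), Ctse (0.848), Ctsh (0.952), Dnajc7 (0.860), Lsp1 (0.877) and Slc2a5 (0.934).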

How the results depend on the processing

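The counts of genes higher and lower in hippocampus, 32 and 33, changed with the test, the genes tested, the wells kept and the sums in the fit. DESeq2's Wald test gave 255 and 461, and 534 genes for the difference between genotypes, against 52. Without a filter on low counts there were 74, 159 and 186, and with a stricter one 38, 53 and 81. limma on means over wells gave 227, 84 and 99, and limma-voom 30, 33 and 140. The 8 WT sums alone gave 7 and 6, with fewer sums to estimate the spread. Wells thinned to 1 depth gave 34, 58 and 75; without plate columns 1 and 2 there were 21, 19 and 35; columns as deposited gave 22, 44 and 18; without the marked wells there were 18, 14 and 45. Leaving out a mouse gave 20 to 39 higher, 19 to 37 lower and 31 to 64 for the difference between genotypes. DESeq2's size factors in edgeR (27, 43 and 57), a stricter well filter (37, 38 and 42) and the omission of Slc34a2 (31, 33 and 51) stayed within 1.5 times of each count. With the replicate block the counts were 22, 30 and 45; replicate numbers were not shown to pair the sums. Apart from the construction of the settings, the cause was not tested.

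None of the 65 genes changed sign in any setting run. Among genes that did not pass, the log2 fold change changed sign for Alas2 (0.10, block), Ebf1 (0.76, columns as deposited), Aurkb (0.007), Bhlhe41 (0.28) and Trem2 (0.55, all limma on means), and Ciita (0.48, without marked wells). Leaving out a mouse moved it across 0 for Hpca (-1.80 to 6.86), Trem2 (-0.065 to 0.011), Ebf1 (-3.35 to 1.84), Gjb6 (-5.75 to 1.84), Aldh1l1 (-4.94 to 0.29), Aurkb (-5.78 to 2.93), Alas2 (-7.32 to 3.84), Il7r (-0.013 to 1.16) and Plac8 (-8.93 to 1.81). Shares of wells gave 0 genes in each of 3 settings. Reads without molecular identifiers are not independent molecules, and genes read in few wells are limited by the number of wells.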
